A study of Mus musculus with 8 samples.

Results

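The 10 Toll-like receptor genes Tlr1, Tlr2, Tlr3, Tlr4, Tlr5, Tlr6, Tlr7, Tlr8, Tlr9 and Tlr13 were followed in whole 4T1.13 mammary tumours that differed in the activity of the microRNA miR-21. The genes were chosen by name. All 10 were among the 27179 genes of the count table and among the 14382 genes tested. The tumours were grown in the mammary fat pad of female BALB/c mice with a normal immune system. Their labels give recovery at day 14, whereas the methods of the study give an earlier day, at which the miR-21-KD tumours began to regress. The 4 4T1.13-VC tumours came from cells with a lentiviral vector that expresses a scrambled sequence, and the 4 4T1.13-miR-21-KD tumours from cells with the same vector expressing an RNA that sequesters mature miR-21. The vector of both lines also carries mCherry and hygromycin resistance, and each line was a pool of single-cell clones that took up the vector. Only the tumour cells carry it, so that the host cells of both groups keep their own miR-21.

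Toll-like receptors are membrane proteins that recognise microbial products and molecules released by damaged cells. Tlr1, Tlr2, Tlr4, Tlr5 and Tlr6 act at the cell surface, whereas Tlr3, Tlr7, Tlr8, Tlr9 and Tlr13 recognise nucleic acids inside endosomes. Most signal through the adaptor Myd88 to NF-kB, Tlr3 signals through Ticam1 (TRIF), and Tlr4 uses both. In tumours they are found on macrophages, dendritic cells, neutrophils and B cells, and some also on epithelial and stromal cells. Extracellular miR-21 has itself been described as a ligand of endosomal Toll-like receptors.

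The mature sequence of miR-21 is shown because it is the molecule that the knockdown sequesters. In the RefSeq annotation of GRCm38.p6, mmu-miR-21a-5p lies at chr11:86584120-86584141 on the minus strand, and its seed, bases 2 to 8, is given in capitals.
mmu-miR-21a-5p: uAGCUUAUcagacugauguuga
The 3′ UTR of each receptor, taken from the transcript with the longest 3′ UTR in GENCODE M21, was searched on the transcript strand for ATAAGCTA (8mer), ATAAGCT (7mer-m8) and TAAGCTA (7mer-A1), with a site counted once as the longest match. Among the 10 receptors, Tlr4 alone held one of these matches. The core TAAGCT, which all of them contain, also occurred once in Tlr13, but with neither flanking base, and was not counted. It was a 7mer-A1 in the last exon, 108 bases after the stop codon, at chr4:66841587-66841593 on the plus strand of GRCm38, and is given in capitals with its flanks.
Tlr4 3′ UTR: cacatggctgcTAAGCTAtagcatggacc
At least one match was present in 1632 of 13225 genes with a 3′ UTR (12.3%), and a 7mer-A1 was the longest match in 4.57%. The match describes the sequence only and says nothing about binding in these tumours.

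The libraries held between 12134849 and 13592695 counted reads, and the receptors between 62 and 1293 reads per tumour. Expression is given in CPM, the reads of a gene scaled to a common library size that was corrected by the TMM factor, with the tumours of each group in the order of their replicate numbers. A gene is called higher or lower in miR-21-KD where edgeR's quasi-likelihood test, adjusted over all tested genes by the method of Benjamini and Hochberg, gave an adjusted p under 0.05. The knockdown itself could not be read from these libraries, since it acts by sequestering mature miR-21 and not on the precursor gene. Mir21a, the precursor gene, whose level would not measure it, had 0 counts in all 8 tumours, which allows up to 0.221 to 0.245 CPM. Vmp1, the gene that overlaps Mir21a, was at 354 ± 18.2 CPM in VC tumours, against 365 ± 16.1 CPM with the knockdown (SD, n = 4, adjusted p = 0.704).

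Tlr8 and Tlr4 were higher in miR-21-KD tumours and Tlr3 was lower, and the other 7 receptors did not pass the test. The 2 of 10 receptors called higher stood against 19.6% of all tested genes, and the 1 of 10 called lower against 19.5%. With the replicate number as a block, 4 receptors were called higher, since Tlr5 (adjusted p = 0.0223) and Tlr6 (adjusted p = 0.0174) were added, against 23.0% of all tested genes, and Tlr3 was still the only one called lower, against 22.1%. The median log2 fold change of the 10 receptors was 0.46, and that of all tested genes -0.01. Of the receptors, 2 had every miR-21-KD tumour above every VC tumour, against 16.3% of all tested genes, and 1 had every miR-21-KD tumour below, against 18.9%.

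**Figure D1:**
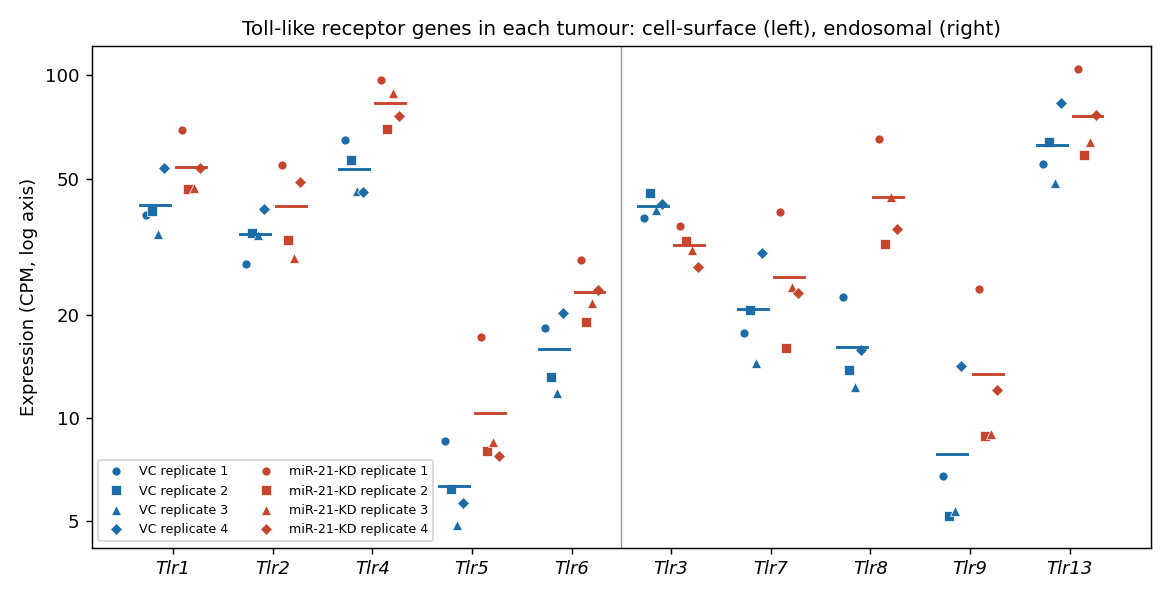
Expression of the 10 receptor genes in CPM on a log axis, with 1 point per tumour, marker shapes for the replicate number and a horizontal line at the mean of each group. The miR-21-KD tumours lie above all VC tumours for Tlr4 and Tlr8 and below all of them for Tlr3, and replicate 1 is the highest miR-21-KD tumour for all 10 genes.

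Among the cell-surface receptors, Tlr4, the receptor for lipopolysaccharide, was the only one called. Tlr4 (Entrez 21898, chr4:66827551-66846581, GRCm38) was at 64.8, 56.6, 45.9 and 45.5 CPM in VC and at 96.8, 69.6, 89.0 and 75.9 CPM in miR-21-KD tumours. The lowest miR-21-KD tumour, replicate 2, lay above the highest VC tumour, replicate 1. The mean went from 53.2 ± 9.27 to 82.8 ± 12.3 CPM, a log2 fold change of 0.64 (SE 0.15, adjusted p = 0.0138). The adjusted p stayed between 0.00720 and 0.0453 with each tumour left out in turn, but was 0.563 when a change above 1.5-fold was tested.

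Tlr2, which recognises bacterial lipopeptides together with Tlr1 or Tlr6, was at 28.2, 34.6, 34.3 and 40.7 CPM in VC and at 54.8, 33.0, 29.3 and 49.0 CPM in miR-21-KD tumours. Replicates 1 and 4 of miR-21-KD lay above all VC tumours and replicates 2 and 3 lay among them. Tlr2 had a log2 fold change of 0.27 (SE 0.21, adjusted p = 0.331), and of 0.11 without miR-21-KD replicate 1 (adjusted p = 0.704). Its partners Tlr1 (Entrez 21897) and Tlr6 (Entrez 21899) had higher means in miR-21-KD, at 54.1 ± 10.6 against 41.9 ± 8.26 CPM for Tlr1, but neither passed the test. Tlr1 was at 39.1, 40.2, 34.5 and 53.7 CPM in VC and 69.2, 46.7, 46.9 and 53.8 CPM in miR-21-KD, and VC replicate 4 reached the level of the miR-21-KD tumours. Its log2 fold change was 0.37 (SE 0.17, adjusted p = 0.114), 0.51 without VC replicate 4 (adjusted p = 0.0348) and 0.23 without miR-21-KD replicate 1 (adjusted p = 0.275).

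Tlr6 was at 18.3, 13.2, 11.8 and 20.3 CPM in VC and 28.9, 19.0, 21.7 and 23.6 CPM in miR-21-KD. The groups overlapped only in that miR-21-KD replicate 2 lay below VC replicate 4. The log2 fold change of Tlr6 was 0.55 (SE 0.20, adjusted p = 0.0590), and it was called without VC replicate 4 (adjusted p = 0.0316), without miR-21-KD replicate 2 (adjusted p = 0.0393), and with DESeq2 (adjusted p = 0.0278), limma-voom (adjusted p = 0.0483), at least 10 counts in every tumour (adjusted p = 0.0486) or the replicate block. It was not called under the other 10 alternatives. Tlr1 and Tlr6 are neighbours on chromosome 5, separated by 19491 bp. They shared 454 stretches of 50 bases in their exons, 15.3% of those of Tlr1 and 12.5% of those of Tlr6, so the split of reads between them is uncertain, and no other pair of the receptors shared any.

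Tlr5, the receptor for flagellin, was one of the least counted receptors. It was at 8.55, 6.22, 4.89 and 5.64 CPM in VC and at 17.2, 8.02, 8.52 and 7.75 CPM in miR-21-KD. Replicate 1 of miR-21-KD stood apart, and the other 3 miR-21-KD tumours lay between the highest and the next VC tumour. For Tlr5, a log2 fold change of 0.71 (SE 0.31) had an adjusted p of 0.0926, and without miR-21-KD replicate 1 the value was 0.36 (adjusted p = 0.244).

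Among the endosomal receptors, Tlr8 was called higher and Tlr3 lower. Tlr8 (Entrez 170744, chrX:167241123-167264329, GRCm38), a relative of the RNA receptor Tlr7 encoded beside it, was at 22.5, 13.8, 12.4 and 15.9 CPM in VC and at 65.1, 32.2, 44.2 and 35.7 CPM in miR-21-KD. Every miR-21-KD tumour lay above every VC tumour, with replicate 1 the highest in both groups. The mean went from 16.1 ± 4.48 to 44.3 ± 14.8 CPM, a 2.74-fold difference (log2 fold change 1.45, SE 0.26, adjusted p = 0.00739). Tlr8 was called under all 16 alternatives run, including the test for a change above 1.5-fold, with log2 fold changes from 1.21 to 1.66 and adjusted p between 3.872e-06 and 0.0499.

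Tlr3 (Entrez 142980, chr8:45395665-45411075, GRCm38), the receptor for double-stranded RNA, was at 38.4, 45.4, 40.5 and 42.1 CPM in VC and at 36.5, 32.8, 30.8 and 27.6 CPM in miR-21-KD. The groups did not overlap, but the highest miR-21-KD tumour and the lowest VC tumour, both replicate 1, were close. The mean fell from 41.6 ± 2.94 to 31.9 ± 3.72 CPM, a log2 fold change of -0.38 (SE 0.11, adjusted p = 0.0231). The call was lost without VC replicate 2 (adjusted p = 0.0668), VC replicate 3 (0.0537), miR-21-KD replicate 3 (0.0604) or miR-21-KD replicate 4 (0.0608), and with the test for a change above 1.5-fold (adjusted p = 1.0).

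Tlr7 and Tlr9, receptors for single-stranded RNA and for unmethylated CpG DNA, varied more between tumours of a group. Tlr7 was at 17.8, 20.7, 14.5 and 30.4 CPM in VC and at 40.0, 16.0, 24.1 and 23.3 CPM in miR-21-KD, and VC replicate 4 lay above 3 of the 4 miR-21-KD tumours. The log2 fold change of Tlr7 was 0.31 (SE 0.31, adjusted p = 0.440), and it went to 0.02 without miR-21-KD replicate 1 and to 0.54 without VC replicate 4. Tlr9 was at 6.78, 5.19, 5.36 and 14.2 CPM in VC and at 23.8, 8.88, 9.01 and 12.1 CPM in miR-21-KD. Without VC replicate 4, which again lay among the miR-21-KD tumours, the log2 fold change of Tlr9 went from 0.77 (adjusted p = 0.178) to 1.21 (adjusted p = 0.0376), and without miR-21-KD replicate 1 it went to 0.34 (adjusted p = 0.511). The same VC tumour had the highest summed B cell markers of all 8, at 125 CPM. The other VC tumours were at 1.75 to 4.20 CPM and the miR-21-KD tumours at 7.87 to 59.2 CPM. The tumour highest in Tlr9, miR-21-KD replicate 1, was at 11.5 CPM, and miR-21-KD replicate 4 held the 59.2 CPM. Replicate 1 of miR-21-KD had the highest summed plasmacytoid dendritic cell markers, at 93.8 CPM. The part of these cell types in the values was not tested.

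Tlr13, which recognises bacterial ribosomal RNA, was at 55.1, 64.0, 48.5 and 83.1 CPM in VC and at 104, 58.6, 63.9 and 76.5 CPM in miR-21-KD. Only miR-21-KD replicate 1 lay outside the VC range. For Tlr13 the log2 fold change was 0.28 (SE 0.22, adjusted p = 0.334), and 0.08 without miR-21-KD replicate 1 (adjusted p = 0.763) or 0.43 without VC replicate 4 (adjusted p = 0.123). Across the receptors, replicate 1 was the highest miR-21-KD tumour for all 10 genes and replicate 2 the lowest for 7, while VC replicate 4 was the highest VC tumour for 6 and VC replicate 3 the lowest for 6.

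**Figure D2:**
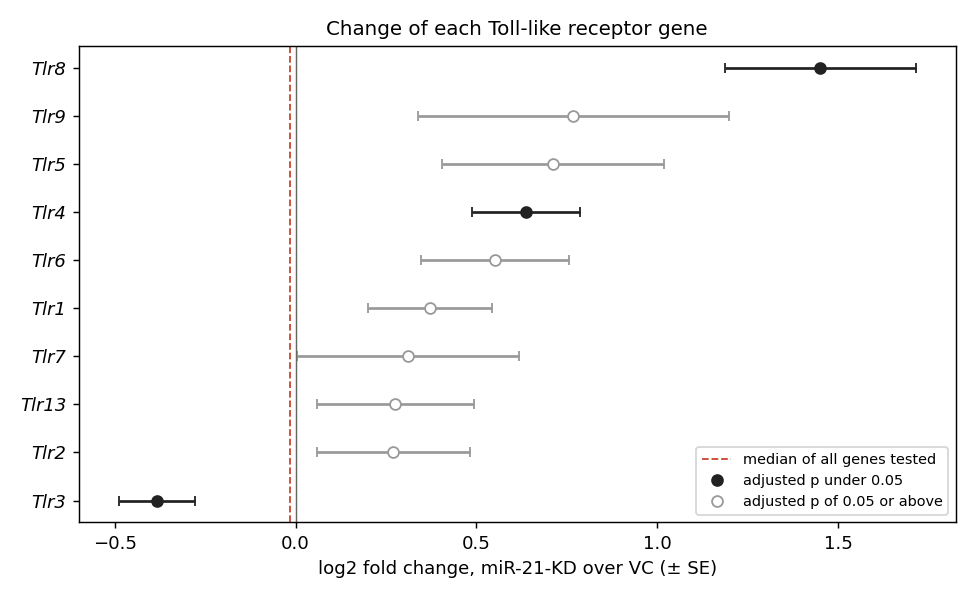
The log2 fold change of miR-21-KD over VC for each receptor with its standard error, ordered by size, with filled points for an adjusted p under 0.05 and a dashed line at the median of all genes tested (-0.01). Tlr8 lies at 1.45, Tlr4 at 0.64 and Tlr3 at -0.38, and the 7 open points lie between 0.27 and 0.77.

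The neighbours Tlr8 and Tlr7, separated by 39050 bp on the X chromosome, were compared after their values had been seen. The log2 ratio of Tlr8 to Tlr7 CPM was 0.34, -0.58, -0.23 and -0.94 in VC and 0.70, 1.00, 0.87 and 0.62 in miR-21-KD tumours. The ratio was higher in every miR-21-KD tumour than in any VC tumour, with means of -0.35 ± 0.55 and 0.80 ± 0.17. No test is given, because the pair was picked for this difference.

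Levels of different receptors were compared per kilobase of exon model (RPKM). In VC tumours the order of the mean level was Tlr13 (14.6 RPKM), Tlr1 (12.5), Tlr2 (11.4), Tlr4 (9.57), Tlr3 (7.99), Tlr7 (5.10), Tlr8 (4.5), Tlr6 (4.26), Tlr9 (2.27) and Tlr5 (1.32). In miR-21-KD tumours it was Tlr13 (17.6 RPKM), Tlr1 (16.2), Tlr4 (14.9), Tlr2 (13.8), Tlr8 (12.3), Tlr7 (6.33), Tlr6 (6.25), Tlr3 (6.13), Tlr9 (3.86) and Tlr5 (2.17). Tlr13 thus had the highest and Tlr5 the lowest mean level in both groups, while Tlr8 moved from rank 7 to rank 5 and Tlr3 from rank 5 to rank 8. The ranges over the 4 tumours overlapped for all 9 pairs of neighbours in each order, so no neighbours were told apart by their ranges. Within tumours the order of neighbours held in 4 of 4 for Tlr13 over Tlr1, Tlr4 over Tlr3, Tlr3 over Tlr7, Tlr6 over Tlr9 and Tlr9 over Tlr5 in VC, and for Tlr8 over Tlr7, Tlr3 over Tlr9 and Tlr9 over Tlr5 in miR-21-KD. With the coding length in place of the exon model, Tlr4 took rank 2 in VC and rank 1 in miR-21-KD.

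Of the summed level of the 10 receptors, Tlr8 made up 8.70%, 5.31%, 5.59% and 5.04% in VC and 13.6%, 11.3%, 13.8% and 10.4% in miR-21-KD tumours. Tlr3 went the other way, with 10.2%, 12%, 12.6% and 9.22% in VC and 5.24%, 7.91%, 6.66% and 5.50% in miR-21-KD tumours. For both genes the shares of the groups did not overlap. The endosomal receptors together held 46.6% ± 2.09 of the sum in VC tumours, against 46.1% ± 2.53 with the knockdown, and the sum itself was 73.5 ± 10.7 and 99.6 ± 23.7 RPKM, with overlapping groups.

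Several marker genes of leucocytes and fibroblasts were higher together with Tlr4 and Tlr8, whereas no tested B cell marker was called. In the B cell markers, VC replicate 4 stood far above the other VC tumours. Ptprc, which encodes the pan-leucocyte antigen CD45, rose from 189 ± 68.2 to 375.0 ± 75.6 CPM (log2 fold change 0.99, adjusted p = 0.0180). Without VC replicate 3 its adjusted p was 0.0536. The 10 macrophage and monocyte markers summed to 2074 to 3206 CPM in VC and 4272 to 7053 CPM in miR-21-KD tumours, and 8 of them were called higher and 0 lower. Over all tested genes 19.6% were called higher and 19.5% lower, and with the replicate block 23.0% and 22.1%, against which this and the following marker counts stand. Without Cd163, which was chosen after the values were seen, the sums were 1646 to 2844 CPM and 2729 to 5080 CPM, and the groups overlapped, with a log2 difference of 1.00 in place of 1.18 and the higher sum in miR-21-KD for 4 of 4 tumours of like number. In bulk tumours, a difference in the number of cells of a type and one in the RNA per cell cannot be told apart. The study's flow cytometry of 4T1.13 tumours found fewer infiltrating monocytes with the knockdown. The list used here mixes genes of macrophages and monocytes and does not separate them.

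The sums of 3 further leucocyte lists did not overlap between the groups. Neutrophil markers summed to 839 to 1456 CPM in VC and 1610 to 3214 CPM in miR-21-KD, where Mmp9, which other cells also express, was the 1 of 7 tested genes called higher. Without Mmp9, left out after the values were seen, the neutrophil sums were 294 to 798 CPM and 384 to 675 CPM and overlapped, with a log2 difference of 0.32 in place of 1.27. With the replicate block 3 of 7 neutrophil markers were higher, Csf3r and Cxcr2 being added. Conventional dendritic cell markers went from 32.1 to 69.8 CPM up to 132 to 192 CPM, with 3 of 6 higher (4 with the block, which added Clec9a), and plasmacytoid dendritic cell markers from 10.3 to 33.1 CPM up to 44.6 to 93.8 CPM, with 2 of 5 higher. T cell markers summed to 25.8 to 97.1 CPM in VC and 94.9 to 189 CPM in miR-21-KD, with 6 of 6 higher, and their sums overlapped. None of these genes was called lower.

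Of the B cell markers, 0 of 3 tested were called in either direction, and Pax5 and Fcer2a were at 0 in some tumours. Their sums were 4.20, 1.75, 2.68 and 125 CPM in VC and 11.5, 7.94, 7.87 and 59.2 CPM in miR-21-KD. Only VC replicate 4 lay above the miR-21-KD tumours, and the other VC tumours lay below all of them. Fibroblast markers summed to 1509 to 3369 CPM in VC and 5094 to 10030 CPM in miR-21-KD, with 3 of 5 higher, and 4 with the block, which added Pdgfrb. Most of that sum came from Col1a1 (means of 1257 and 3503 CPM) and Col1a2 (979 and 2659 CPM). Pdgfra went the other way, from 228 ± 28.8 to 178 ± 54.4 CPM (log2 fold change -0.36, adjusted p = 0.176). No sum without the collagens was taken. Endothelial markers summed to 326 to 592 CPM and 517 to 751 CPM, which overlapped, with 2 of 5 higher and 0 lower. Epithelial markers of the carcinoma summed to 1282 to 2202 CPM in VC and 787 to 1812 CPM in miR-21-KD, which also overlapped. Of these 5 genes, Epcam, Krt19 and Cdh1 were called higher and Krt18 lower, and with the block Krt8 was lower too. The part of these cell types in the changes of the receptors was not tested.

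**Figure D3:**
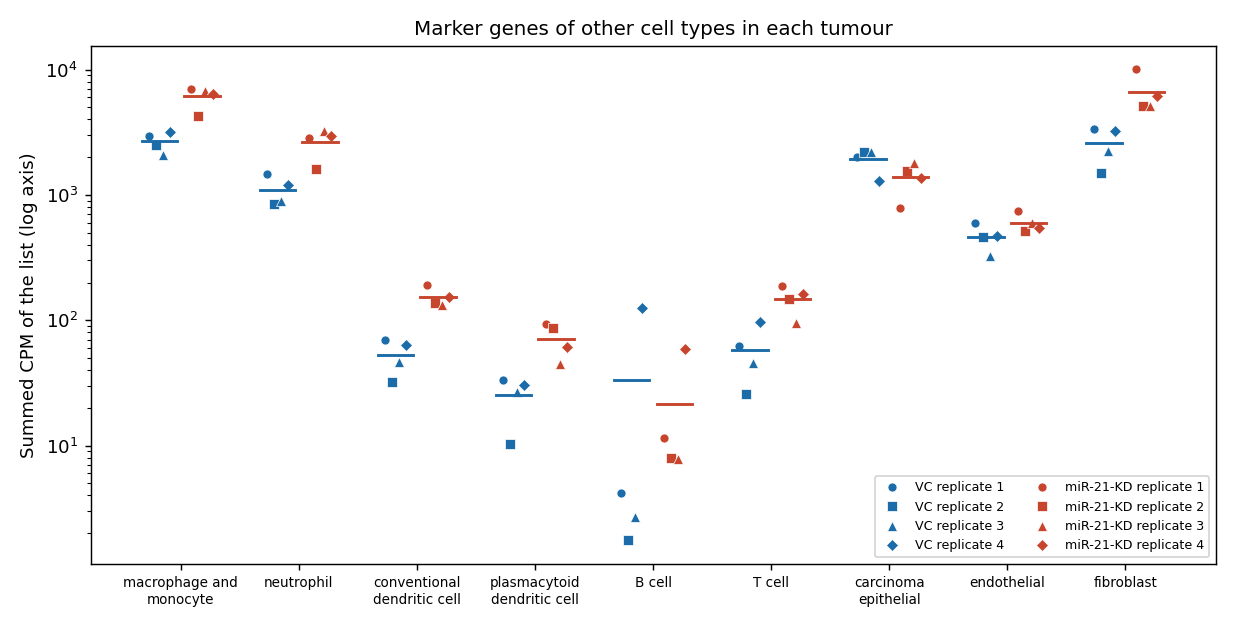
Summed CPM of each marker list on a log axis, with 1 point per tumour and a horizontal line at the group mean. The macrophage and monocyte, neutrophil, dendritic cell and fibroblast sums of the miR-21-KD tumours lie above all VC tumours. Without Cd163 the first overlap, with a log2 difference of 1.00 in place of 1.18, and without Mmp9 the second, with 0.32 in place of 1.27. The fibroblast sums are mostly Col1a1 and Col1a2, while Pdgfra has a lower mean in miR-21-KD. Replicate 4 of each group stands above the others in B cell markers.

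Each receptor was also set against the macrophage and monocyte markers. Because the marker sum itself was higher in miR-21-KD, most genes had a lower ratio there, with a median log2 difference of -1.19 over all tested genes with reads in every tumour, 89.6% of which were below 0. Of the 10 receptors, 9 had a lower mean log2 ratio, and for 6 (Tlr1, Tlr2, Tlr3, Tlr6, Tlr7 and Tlr13) every miR-21-KD tumour lay below every VC tumour, against 68.7% of all tested genes.

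The difference in log2 ratio was -1.57 for Tlr3 and -0.95 for Tlr2. For Tlr4 it was -0.54, from -5.66 ± 0.32 to -6.19 ± 0.19, with overlapping groups. Tlr8 had ratios of -7.05, -7.51, -7.39 and -7.66 in VC and -6.76, -7.05, -7.25 and -7.49 in miR-21-KD tumours. These overlapped, and the mean difference was 0.26, which became 0.135 without miR-21-KD replicate 1 and 0.175 without VC replicate 4. Between tumours of like number, the ratio of Tlr8 was higher in miR-21-KD for 4 of 4 and that of Tlr4 lower for 4 of 4. No such count was made over all genes, and the labels name no pairing. Of the tested genes with reads in every tumour, 89.6% had a lower mean ratio. With Ptprc as the denominator, the difference for Tlr8 was 0.40, and the receptors counted 9 below 0, against 87.5% of the genes, and 6 without overlap, against 53.5%. Without Cd163 in the marker sum the difference was 0.442 for Tlr8, -0.355 for Tlr4 and -0.426 for Tlr6, whose groups then overlapped. With that sum 9 receptors were below 0, against 86.8% of the genes, and 5 were without overlap, against 38.6%. The ratios were not tested.

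**Figure D4:**
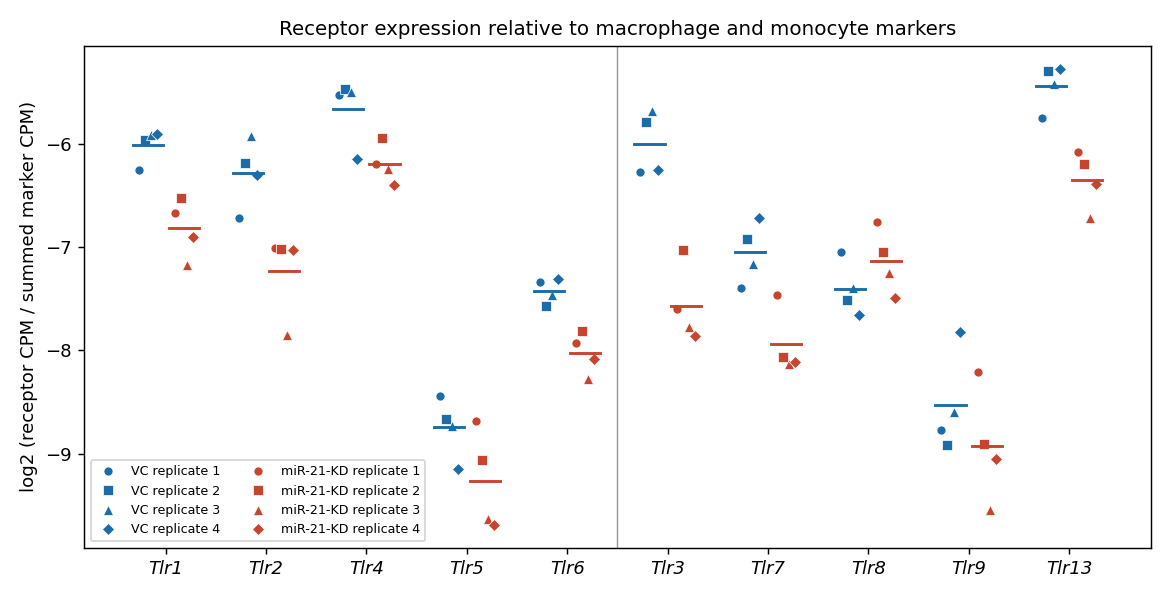
The log2 ratio of each receptor's CPM to the summed CPM of 10 macrophage and monocyte markers, with 1 point per tumour and a horizontal line at the group mean. Tlr8 is the only receptor whose mean ratio is higher in miR-21-KD, by 0.26, and its groups overlap. Over all tested genes the median difference is -1.19.

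The receptors differed in how alike their profiles were over the 8 tumours, measured as the root-mean-square difference of log2 CPM centred on each gene's mean. The closest pair was Tlr1 and Tlr13, at 0.10, and the farthest was Tlr3 and Tlr8, at 0.97. Among 13017 tested genes of at least 1 log2 CPM on average, the profiles closest to Tlr8 were Cacna1d (0.09), Ank2 (0.12) and Tns1 (0.13), against a median of 0.85 over those genes. Those closest to Tlr4 were Dab2 (0.08), Itsn1 (0.08) and Dyrk2 (0.08), against a median of 0.49, and those closest to Tlr3 were Cox15 (0.06), Fto (0.07) and Trim44 (0.07), against 0.33. The profile of Tlr1 was closest to Gng2 (0.06), that of Tlr6 to Igfbp7 (0.07), and that of Tlr13 to Gm2a (0.10). For Tlr2 the closest was a gene with no symbol matched, followed by Rmdn2 (0.13) and Homez (0.13). For Tlr7 and Tlr5 the closest were Rgs10 (0.13) and Dchs1 (0.15), and for Tlr9 it was Gm5431 (0.17). All these values share the same 8 libraries and the difference between the groups, and are given as a description.

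The genes that act with the receptors were read from 8 further lists. Of 97 genes listed, 94 were tested, and 40 were called higher (42.6%) and 7 lower (7.45%), with a median log2 fold change of 0.42. Over all tested genes these shares were 19.6% and 19.5%, against which the counts of each list below stand, and with the replicate block 23.0% and 22.1%. All 47 were also called with the replicate block, and 23 of them with every single tumour left out, while the test for a change above 1.5-fold kept 2, Fn1 and Ccl5. Among the genes sensed as endogenous ligands, 6 of 10 were higher and 0 lower, with a median of 1.17. Fn1, the matrix protein fibronectin, went from 2688 ± 696 to 9016 ± 2710 CPM (log2 fold change 1.75, adjusted p = 0.00585). Vcan (log2 fold change 1.33), Dcn (1.90) and Tnc (1.44), further proteins of the extracellular matrix, rose with it, with adjusted p of 0.0149, 0.0185 and 0.0237. The summed fibroblast markers, mostly Col1a1 and Col1a2, moved with them, from a mean of 2582 CPM in VC to 6596 CPM in miR-21-KD tumours. Pdgfra did not, and the part of fibroblasts was not tested. Without VC replicate 3 the adjusted p of Dcn was 0.0566 and that of Tnc 0.0654, and Tnc also lost its call without miR-21-KD replicate 1 or 3. S100a8 and S100a9, alarmins of myeloid cells that also stand in the neutrophil list, were not called, with log2 fold changes of -0.16 (SE 0.40) and -0.04 (SE 0.37).

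Co-receptors and trafficking factors had 6 of 13 genes higher and 0 lower, with a median of 0.51. The list includes Tlr11 and Tlr12, and without them 5 of 11 were higher. With the replicate block 7 of 13 were higher, since Ly96, the partner of Tlr4 in binding lipopolysaccharide, was added (adjusted p = 0.0487). Lgmn, an endosomal protease, rose from 1378 ± 176 to 2346 ± 332 CPM (log2 fold change 0.77, adjusted p = 0.00854), and Cd36, a scavenger receptor that works with Tlr2, Tlr4 and Tlr6, from 56.6 ± 33.1 to 191 ± 56.0 CPM (1.75, adjusted p = 0.0119). Cd14, which hands lipopolysaccharide to Tlr4, was at 87.7, 71.6, 66.8 and 94.4 CPM in VC and at 167, 84.6, 156 and 184 CPM in miR-21-KD. Its miR-21-KD replicate 2 lay among the VC tumours, and the log2 fold change was 0.88 (adjusted p = 0.0195). The call of Cd14 was lost without VC replicate 2 or 3 or miR-21-KD replicate 4, with an adjusted p of up to 0.0592. Tlr11, a further receptor of the family that is not among the 10, rose from 2.37 ± 0.93 to 7.15 ± 3.29 CPM (1.59, adjusted p = 0.0151), on 24 to 144 reads per tumour. Tlr12 was at 5.84 ± 6.59 and 5.95 ± 3.08 CPM (adjusted p = 0.978). The summed macrophage and monocyte markers and Ptprc described above were higher too, and their part in the changes of this list was not tested.

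The adaptors, which link the receptors to their kinases, included 1 higher and 1 lower gene among 5 tested. The replicate block made it 2 higher, adding Pik3ap1 (adjusted p = 0.0265). Tirap, which bridges Tlr2 and Tlr4 to Myd88, was at 72.0, 77.9, 78.2 and 63.2 CPM in VC and at 31.5, 56.5, 39.2 and 27.7 CPM in miR-21-KD. The groups did not overlap, and the log2 fold change was -0.91 (SE 0.21, adjusted p = 0.0132). Ticam2, which bridges Tlr4 to Ticam1, was higher, at 17.8 ± 4.82 against 9.71 ± 1.72 CPM (0.87, adjusted p = 0.0188). Its call was lost without VC replicate 2 or 3 or miR-21-KD replicate 3, with an adjusted p of up to 0.0569. Myd88, the adaptor of most of the receptors, and Ticam1, that of Tlr3 and Tlr4, which were picked after their values were seen, had log2 fold changes of 0.01 (SE 0.07) and 0.01 (SE 0.09), whose sign changed when libraries were scaled by size alone.

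Of the signalling kinases and ubiquitin ligases, 6 of 18 were higher and 3 lower, with a median of 0.19. Irak1, the kinase recruited by Myd88, was lower in all miR-21-KD tumours, at 112 ± 8.99 against 166 ± 16.9 CPM (-0.57, SE 0.10, adjusted p = 0.00688). Ube2n (-0.40, adjusted p = 0.0185) and Tab3 (-0.37, adjusted p = 0.0397), which act with Traf6 in activating the kinase Tak1, were lower too. The call of Ube2n was lost without VC replicate 2 (adjusted p = 0.0567), and that of Tab3 without any one of 6 tumours, namely VC replicates 1, 2 and 3 and miR-21-KD replicates 1, 3 and 4 (adjusted p of up to 0.109), and under the filter of 10 counts per tumour (adjusted p = 0.0580). Traf6 itself rose from 49.2 ± 7.28 to 75.7 ± 6.60 CPM (0.62, adjusted p = 0.00777). Map3k8 (0.92, adjusted p = 0.00735), Ripk1 (0.48, adjusted p = 0.00931) and Ikbkb (0.45, adjusted p = 0.0110), kinases on the way to MAP kinases and NF-kB, were also higher, and these 4 and Irak1 were called with every tumour left out.

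Of the transcription factors, 4 of 8 were higher and 0 lower, with a median of 0.20. The NF-kB subunits Relb (0.38, adjusted p = 0.00983), Rela (0.30, adjusted p = 0.0133) and Rel (0.82, adjusted p = 0.0324) and the interferon regulatory factor Irf5 (0.91, adjusted p = 0.0137) had every miR-21-KD tumour above every VC tumour. The call of Rel, on 3.87 ± 1.05 CPM in VC, was lost without any one of VC replicates 2, 3 and 4 and miR-21-KD replicates 1 and 3 (adjusted p of up to 0.0873).

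Of the negative regulators, 6 of 12 were higher and 1 lower, with a median of 0.36. Tollip was added by the replicate block (adjusted p = 0.0423), which gave 7 higher. Tnip1 (0.46, adjusted p = 0.00830), Socs1 (0.66, adjusted p = 0.0105), Tnfaip3 (0.58, adjusted p = 0.0240) and Irak3 (0.94, adjusted p = 0.0281), which restrain NF-kB or the receptor complex, rose. Sigirr, a membrane protein that damps Toll-like and interleukin-1 receptor signalling, fell from 43.0 ± 7.89 to 25.8 ± 9.19 CPM (-0.74, adjusted p = 0.0409). The calls of Tnip1 and Socs1 were kept with every tumour left out. Those of Tnfaip3, Irak3 and Sigirr were lost without VC replicate 2 or 3 or miR-21-KD replicate 1, and the last 2 also without miR-21-KD replicate 3 or 4 and, for Sigirr, without VC replicate 4, with adjusted p of up to 0.0706, 0.0746 and 0.110.

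Among genes known to be induced through the receptors, 8 of 15 tested were higher and 0 lower, with a median of 1.02. In the fit with the block 9 were higher, the added gene being Il1b, which encodes interleukin-1 beta (adjusted p = 0.0339). The chemokine genes Ccl5 and Ccl4 went from 19.3 ± 9.91 to 72.6 ± 22.1 CPM (1.92, adjusted p = 0.00922) and from 13.8 ± 6.57 to 39.0 ± 7.99 CPM (1.5, adjusted p = 0.00998). Tnf, the tumour necrosis factor, rose from 4.71 ± 1.93 to 10.9 ± 2.0 CPM (1.20, adjusted p = 0.0147), and Nos2, the inducible nitric oxide synthase, from 184 ± 64.9 to 374 ± 25.3 CPM (1.02, adjusted p = 0.0159). These 4 calls were kept with every tumour left out. Ifnb1 and Il12a were counted too little to be tested. The macrophage, dendritic cell and T cell markers described above moved with these genes, and their part in the changes was not tested.

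Of the sensors of other families, 3 of 13 were higher (23.1%) and 2 lower (15.4%), with a median of 0.25, against 19.6% and 19.5% of all tested genes. With the replicate block 5 were higher (38.5%) and 2 lower, against 23.0% and 22.1%, since Aim2, a sensor of DNA in the cytosol (adjusted p = 0.0336), and the lectin receptor Clec4e (adjusted p = 0.0124) were added. Nod1, a sensor of bacterial cell wall, rose from 43.8 ± 6.19 to 68.7 ± 4.16 CPM (0.65, adjusted p = 0.00679), and Clec7a, the receptor for beta-glucan, from 112 ± 56.0 to 326 ± 93.8 CPM (1.54, adjusted p = 0.0151). Nlrp3 (0.62, adjusted p = 0.0455), Cgas (-0.55, adjusted p = 0.0268) and Mavs (-0.31, adjusted p = 0.0323), which act in the inflammasome and in the sensing of DNA and RNA in the cytosol, each lost the call without VC replicate 2 or 3 or miR-21-KD replicate 1. The call of Nlrp3 was also lost without VC replicate 1 or miR-21-KD replicate 2 or 4, that of Cgas without VC replicate 4 or miR-21-KD replicate 3 or 4, and that of Mavs without VC replicate 4 or miR-21-KD replicate 3 (adjusted p of up to 0.120). Scaling by library size (adjusted p = 0.0531) and no filter (0.0575) also ended the call of Nlrp3, and upper-quartile scaling (0.0615) and at least 10 counts in every tumour (0.0578) that of Mavs. The summed macrophage and dendritic cell markers and Ptprc were higher in miR-21-KD too, and their part in the changes of these sensors was not tested.

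**Figure D5:**
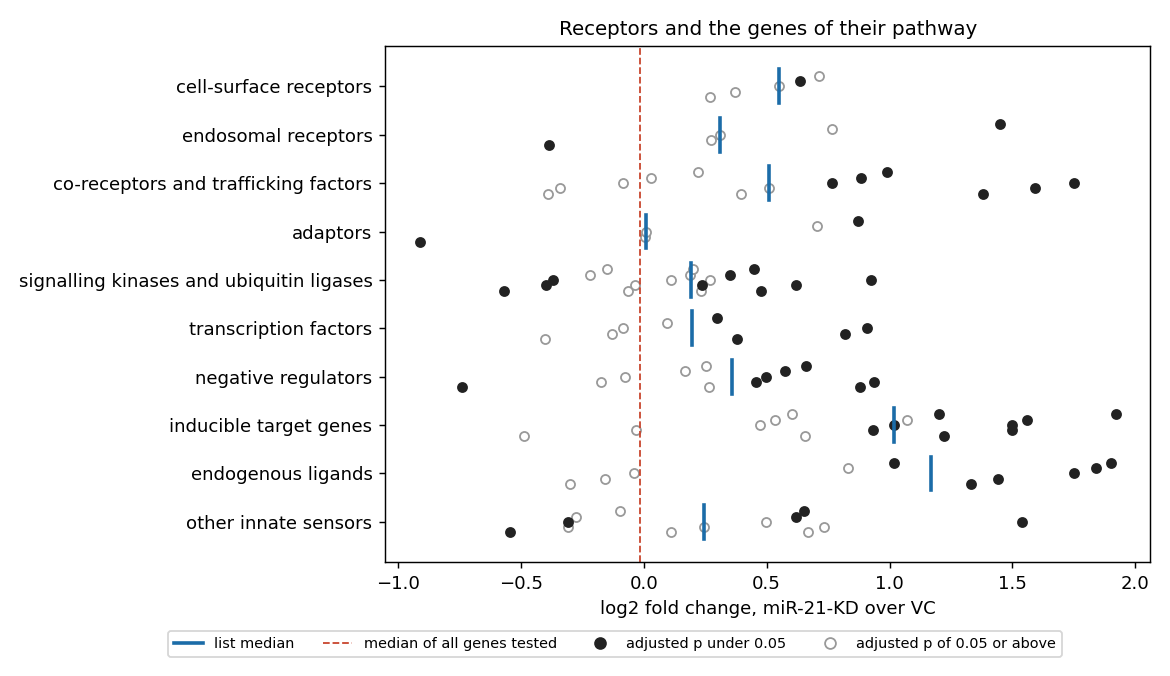
The log2 fold change of miR-21-KD over VC for each tested gene of the 2 receptor lists and the 8 other lists, filled for an adjusted p under 0.05, with a bar at the median of each list and a dashed line at the median of all genes tested (-0.01). List medians run from 0.01 for the adaptors to 1.17 for the endogenous ligands, and the adaptors, kinases, negative regulators, other sensors and endosomal receptors hold genes called in both directions.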

How the data were processed

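Total RNA of 8 whole 4T1.13 tumours (4 4T1.13-VC, 4 4T1.13-miR-21-KD) was sequenced. The deposited table holds raw read counts for each Entrez gene, not normalized, with 1 column per tumour. The submitters' processing notes name Subread, featureCounts, edgeR, limma and the build mm10. Versions, annotation and strand setting are not given in the sources used here. Symbols matched 25275 of 27179 identifiers. Gene positions, lengths and 3′ UTRs are those of GENCODE M21 (GRCm38).

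In R 4.3.3, edgeR 4.0.16 kept 14382 genes with filterByExpr (minimum count 10, minimum total 15), which hold 99.852% of the counts, and left out 12797. TMM scaling and the robust quasi-likelihood test compared the groups, with Benjamini-Hochberg adjustment and a threshold of 0.05. Log2 CPM used a prior count of 2. With 12134849 to 13592695 reads per tumour, a count of 0 allows 0.221 to 0.245 CPM, for counting error only. Each tumour of a group differed from the others by more than sampling noise (chi-square per degree of freedom of 13.3 to 75.4). P-values measure the spread between the tumours deposited, each line having been made once.

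In the labels the tumours of each group carry the numbers 1 to 4, and no pairing is named. After removal of group means, tumours of the same number correlated at 0.272, 0.421, 0.175 and 0.376, and the 12 pairs of unlike number at -0.393 to 0.393, of which 4 were also over 0.1. The main fit did not use the numbers, and tumours of like number were compared only in addition. Every pair of like number was over 0.1, a hint of pairing from the data only. The fit with the replicate number as a block is therefore given where it changes a call.

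The members and lists were chosen with earlier results of these data known. Text names all 10 receptors. Of each further list it names the up to 4 called genes of smallest adjusted p per direction. For each receptor it names genes from the 3 of closest profile, and it adds Ptprc, Vmp1 and Mir21a. Outside this rule it names S100a8, S100a9, Tlr12, Myd88 and Ticam1, and Ifnb1 and Il12a, which were not tested. Single marker genes of cell types are also named outside it. Genes called only with the block were named after their values were seen. One marker gene is not reported here and was left out of its list. Lists were written from general knowledge and described by counts, without a set test. Alternatives were DESeq2 1.42.0, scaling by library size or upper quartile, no filter, at least 10 counts in every tumour, voom of limma 3.58.1, the replicate block, a test for changes above 1.5-fold, each tumour left out, the coding length, and Ptprc as denominator. Marker sums without Mmp9 or Cd163 were added after seeing the data.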

Additional observations from a re-analysis of the deposited data

Results flagged for a closer look

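Of 20 sets of 4 values, one for each receptor in each group, 1 held a tumour that stood apart. In miR-21-KD tumours, Tlr5 was at 17.2 CPM in replicate 1 and between 7.75 and 8.52 CPM in the other 3, so that the gap was 0.918 of the whole range, above Dixon's 95% critical value for 4 samples. Chance flags about 1 in 20 such sets. The same tumour was the highest of its group for all 10 receptors.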

How the results depend on the processing

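The number of receptors called higher was 2, and became 4 with the replicate block (Tlr5 and Tlr6 added), 1 with the test for a change above 1.5-fold (Tlr8), and 2 to 5 with each tumour left out, the 5 being reached without VC replicate 4. The number called lower was 1, and became 0 with the 1.5-fold test and 0 to 1 with each tumour left out. Of the genes of the other lists, 40 were called higher and 7 lower. The 1.5-fold test gave 2 and 0, and leaving out each tumour 22 to 41 higher, the lowest without VC replicate 3, and 2 to 8 lower, the lowest without VC replicate 2. Over all genes, 2826 higher and 2800 lower calls became 334 and 208 with the 1.5-fold test, and 1449 to 3290 and 1487 to 3550 with each tumour left out, both lowest without VC replicate 3. The cause of these differences was not tested, beyond the fewer tumours and the stricter test themselves. Under DESeq2, both other scalings, both other filters and limma-voom, the counts of calls over the receptors, the other lists and all genes stayed within 1.5 times the values reported. No log2 fold change of a receptor reversed. The block changed no other call among the receptors and lost none among the other lists, where it added 6, and among the cell type markers it added 5 and lost none. With the coding length, 13 of the 20 mean levels of receptors moved by more than 1 SD.

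Each group had 4 tumours, the receptors had as few as 62 reads in a tumour, and the standard errors of Tlr5 (0.31) and Tlr9 (0.43) on the log2 scale limit the size of change that could be detected for them. The split of reads between Tlr1 and Tlr6 is uncertain, and levels per length depend on the gene model, since the one used for counting is not given in the sources used here.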
